A study of Mus musculus with 8 samples.

Results

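Cells that express CD45 were excluded before stromal RNA was sequenced, and transcripts of 10 leukocyte genes were examined to see how much leukocyte RNA the libraries still held. The genes were taken by symbol from the table of 53801 genes, in which all 10 were found. They comprised Ptprc, which encodes CD45 itself, 6 genes of myeloid cells (Lyz2, Cd68, Csf1r, Tyrobp, Fcer1g and C1qa) and 3 genes of antigen presentation by MHC class II (Cd74, H2-Aa and H2-Ab1). All 10 had reads and an adjusted p in the comparison between groups.

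The cells came from MO5 melanomas, a mouse melanoma line derived from B16 that carries ovalbumin, grown under the skin of ADAM12-GFP mice on the C57Bl/6 background, 8 to 12 weeks old, and they were taken at day 8. Both groups carried the same BAC transgene, in which sequences of Adam12 drive Cre and GFP, so GFP reports on the transgene rather than on the protein. Live PDPN+PDGFRα+ cells without CD45 or CD31 were sorted by GFP into GFP+ cells (4 libraries) and GFP- cells (4 libraries), which the study names ADAM12+ and ADAM12–, and neither group received a drug or other treatment. The methods count n in mice unless stated otherwise, but the labels do not tie libraries to animals, so p-values are read as measuring the spread between these libraries.

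CD45 is a receptor tyrosine phosphatase found on nearly all nucleated blood cells, and it sets the threshold of antigen receptor signalling, which is why antibodies to it are used to remove leukocytes from a stromal sort. Macrophages are abundant in melanoma, where they engulf dying cells and carry lysozyme, complement C1q and the adaptors of activating Fc receptors. Class II molecules present peptides to CD4+ T cells and are assembled around the invariant chain CD74. They are made constitutively by dendritic cells, B cells and macrophages, and some tumour fibroblasts also transcribe them without CD45.

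RefSeq promoters (GRCm38.p6) were at hand for 5 of the 10 genes, and 3 are shown because they stand for the gate gene, a myeloid gene and a class II gene. Each window holds the 250 bases before the RefSeq start, and all 3 genes lie on the minus strand. Capitals mark GAGGAA, the core of sites for the myeloid factor PU.1, and ATTGG, the inverted CCAAT box bound by NF-Y, each searched on both strands (TTCCTC and CCAAT).
Ptprc, chr1:138175306-138175555: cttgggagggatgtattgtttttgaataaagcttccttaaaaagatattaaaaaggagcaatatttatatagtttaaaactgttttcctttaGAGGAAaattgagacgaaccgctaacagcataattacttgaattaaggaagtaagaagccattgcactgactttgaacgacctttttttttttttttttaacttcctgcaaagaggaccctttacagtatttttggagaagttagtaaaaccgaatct
Cd68, chr11:69666171-69666420: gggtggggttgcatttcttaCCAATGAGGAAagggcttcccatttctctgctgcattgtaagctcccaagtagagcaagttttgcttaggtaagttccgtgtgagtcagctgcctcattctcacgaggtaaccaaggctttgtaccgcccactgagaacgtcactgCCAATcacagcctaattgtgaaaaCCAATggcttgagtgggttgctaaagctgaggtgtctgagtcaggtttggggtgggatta
H2-Aa, chr17:34287824-34288073: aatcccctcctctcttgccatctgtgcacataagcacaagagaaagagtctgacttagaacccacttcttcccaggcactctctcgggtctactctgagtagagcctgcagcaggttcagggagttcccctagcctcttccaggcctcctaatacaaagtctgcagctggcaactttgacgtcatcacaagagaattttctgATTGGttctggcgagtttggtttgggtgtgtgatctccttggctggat
RefSeq gives 2 starts for Ptprc, and the window of the other, chr1:138175127-138175376, held neither motif. The Ptprc window shown held 1 GAGGAA, the Cd68 window 1 GAGGAA next to 1 of 3 CCAAT matches, and the H2-Aa window 1 ATTGG, which began 48 bases before the start. Over 32851 promoter windows of the same length, 23.3% held GAGGAA and 33.8% held ATTGG on either strand. The windows of Lyz2 and Fcer1g held neither.

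Depth differed widely between libraries, from 883144 reads assigned to genes in GFP- replicate 3 to 31666734 in GFP+ replicate 4. Counts were divided by the size factor of each library, 0.0910 in GFP- replicate 3 and 0.720 to 2.98 in the others, and are called normalised read counts below. Adam12 itself was read in both groups, with 1693, 1605, 1231 and 919.7 normalised reads in GFP- and 1833, 2396, 2039 and 2938 in GFP+ libraries, and was 1.69-fold higher in GFP+ cells without overlap (DESeq2 adjusted p 0.0266). Without GFP- replicate 3 its DESeq2 adjusted p was 0.0689. Stromal transcripts were abundant in every library, and the sum over 10 stromal genes was 256063 normalised reads or more in each. The 10 leukocyte genes together took 0.0240% to 0.129% of the reads of a library.

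Ptprc was detected in all 8 libraries although its protein had been gated out (the plot of all members by library). It had 203.5, 137, 1703 and 453 normalised reads in GFP- replicates 1 to 4, and 119, 1383, 146 and 707 in GFP+ replicates 1 to 4. The 2 groups overlapped almost completely, and in each group 1 library was far above the rest. The value of GFP- replicate 3 rested on 155 reads, with a 95% Poisson interval, covering counting error only, of 1445 to 1993 normalised reads, against 453 in the next GFP- library. Ptprc (ENSMUSG00000026395, minus strand of chromosome 1, 138062861 to 138175708, GRCm38) shares its locus with A130071D04Rik on the same strand, and reads that match both can be lost.

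**Figure D1:**
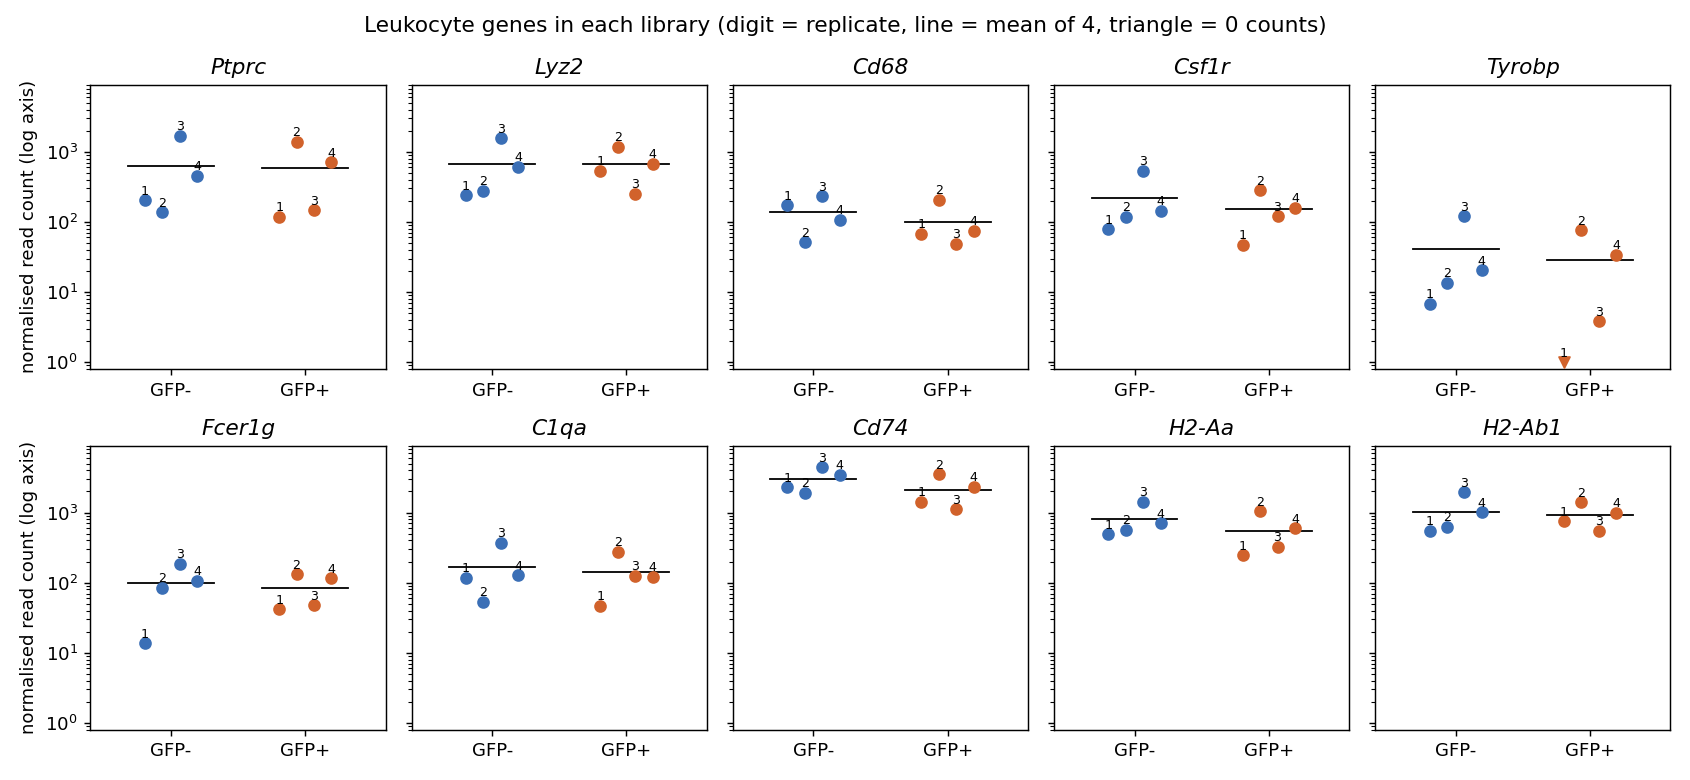
Normalised read counts (log axis) of the 10 leukocyte genes in the 4 GFP- (blue) and 4 GFP+ (orange) libraries, with the replicate number above each point, the group mean as a line and a triangle for 0 counts. GFP- replicate 3 is the highest of the 8 libraries for all 10 genes, and GFP+ replicate 2 is the highest of the GFP+ libraries for all 10.

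The same 2 libraries held the highest values of every member. GFP- replicate 3 was the highest of all 8 libraries in 10 of 10 genes, and GFP+ replicate 2 was the highest GFP+ library in 10 of 10. Among all genes with a mean of at least 10 normalised reads, both held at once for 8.40%. The lower limit of the counting interval in GFP- replicate 3 lay above all other GFP- libraries for 9 of 10 genes, the exception being Cd68 with 21 reads there, and in GFP+ replicate 2 it lay above the other GFP+ libraries for 10 of 10. These intervals cover counting error in the leading library only, so they do not measure the spread between libraries. For Fcer1g the lower limits were 109 against a next value of 105.6 in GFP-, and 118 against 115 in GFP+ libraries. At the other end, GFP+ replicate 1 was the lowest library for 5 genes, GFP- replicate 1 for 3 and GFP+ replicate 3 for 2.

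Lyz2, the lysozyme gene of macrophages and neutrophils, had 241.5, 277, 1571 and 608 normalised reads in GFP- replicates 1 to 4, and 537, 1179, 250.4 and 679 in GFP+ replicates 1 to 4. Cd68, which encodes a lysosomal membrane protein of phagocytes, had 172, 50.9, 231 and 108 in GFP- and 68.04, 206, 48.4 and 74.8 in GFP+ libraries. Lyz2 thus spanned a 6.51-fold range over the 8 libraries and Cd68 a 4.77-fold range, with GFP+ replicate 2 well apart from the other GFP+ libraries for Cd68. Lyz2 (minus strand of chromosome 10, 117277331 to 117282321) has a close paralog, Lyz1, 5475 bases away on the same strand. Transcribed bases 21 to 50 of the RefSeq starts are shown because they differ at 1 base, in capitals, so that reads from such stretches could be lost or split between the genes.
Lyz2, chr10:117282223-117282252: tccagtcaccatgaagActctcctgactct
Lyz1, chr10:117292819-117292848: tccagtcaccatgaagGctctcctgactct
Lyz1 reads were fewer, between 0 and 154 normalised reads per library, and GFP- replicate 3 was again the highest.

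Csf1r, the receptor for the macrophage growth factor CSF1, had 78.7, 118, 538 and 143 normalised reads in GFP- and 47.2, 283, 121 and 158 in GFP+ libraries. C1qa, a chain of the complement component C1q, had 117, 53.7, 374 and 128 in GFP- and 47.2, 274, 125 and 122 in GFP+ libraries. Apart from the highest library in each group, Csf1r lay between 47.2 and 158 in both groups. Csf1r lies on chromosome 18, and Pdgfrb, a gene of fibroblasts and pericytes, ends 15536 bases before it on the same strand. Pdgfrb in GFP- replicate 3 was 1.18 times the mean of the other GFP- libraries, whereas Csf1r was 4.75 times that mean. The gene on the opposite strand of Csf1r, Hmgxb3, overlaps it, and the counting was stated to use the strand. C1qa (minus strand of chromosome 4, 136895917 to 136898803) was accompanied by the other chains of C1q. C1qb averaged 280.4 normalised reads in GFP- and 174 in GFP+ libraries, and C1qc 166 and 145, and their DESeq2 adjusted p were 0.538 and 0.953.

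Tyrobp (DAP12) and Fcer1g (the Fc receptor γ chain) encode small adaptors that pass signals from activating receptors through ITAM motifs. Tyrobp (plus strand of chromosome 7, 30413760 to 30417585) was the weakest member, with 6.78, 13.6, 121 and 20.5 normalised reads in GFP- and 0, 76.1, 3.84 and 34.2 in GFP+ libraries. The value of 121 rested on 11 reads, with a counting interval of 60.3 to 216. No read was assigned in GFP+ replicate 1, where 3 reads would be 4.17 normalised reads. Fcer1g (minus strand of chromosome 1, 171229572 to 171234365) had 13.6, 84.6, 187 and 106 in GFP- and 41.7, 132, 47.6 and 115 in GFP+ libraries. Unlike the other myeloid genes, Fcer1g was nearly level between the 2 highest GFP+ libraries.

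Cd74 (chromosome 18), the invariant chain that guides class II molecules to the endosome, was the most abundant member. It had 2289, 1928, 4461 and 3449 normalised reads in GFP- and 1418, 3498, 1121 and 2344 in GFP+ libraries. No library was close to free of Cd74, and the highest was 3.98-fold above the lowest. H2-Aa, the class II α chain of the I-A molecule, had 489.8, 569, 1428 and 699 in GFP- and 244, 1047, 328 and 593 in GFP+ libraries. H2-Ab1, its β chain, had 549.5, 626, 1945 and 1011 in GFP- and 748.5, 1411, 552 and 989 in GFP+ libraries. H2-Aa (minus strand of chromosome 17, 34282744 to 34287823) and H2-Ab1 (plus strand, 34257689 to 34269419) are neighbours, and both showed the same 2 leading libraries. The ratio of H2-Ab1 to H2-Aa reads was 1.12, 1.10, 1.36 and 1.45 in GFP- replicates 1 to 4, and 3.06, 1.35, 1.68 and 1.67 in GFP+ replicates 1 to 4, so the groups overlapped and GFP+ replicate 1 was the highest.

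Levels were next compared between genes per length, as normalised reads per kb of all annotated exons joined, averaged over the 8 libraries (the plot of level per length). Cd74 was first with 1527 ± 682 (SD, n = 8), above Lyz2 with 508 ± 364 in 8 of 8 libraries. Lyz2 and H2-Ab1, with 381 ± 190, were not separated, the first being higher in 5 of 8. H2-Ab1 lay above H2-Aa in 8 of 8 libraries and H2-Aa above C1qa in 7 of 8. C1qa, Fcer1g and Cd68, with means from 149 to 95.3, followed each other with the order kept in 5 of 8 libraries each time, and Cd68 lay above Tyrobp in 8 of 8. Ptprc and Csf1r had the lowest means, 33.1 ± 33.7 and 32.2 ± 27.5. Tyrobp lay above Ptprc in 5 of 8 libraries and Ptprc above Csf1r in only 2 of 8, so the last places were not separated. For comparison, Pdgfra, a marker used in the sort, had 576 ± 97.5 in GFP- and 1434 ± 152 in GFP+ libraries on this scale (SD, n = 4 each). The mean of Cd74 lay above it in GFP- libraries, at 1806 ± 687, and below it in GFP+ libraries, at 1248 ± 638, while Ptprc had 34.1 ± 39.97 and 32.1 ± 32.5. The order rests on the length used: with the longest coding transcript in place of all exons, the mean of Ptprc became 119.5, between Fcer1g and Cd68, and H2-Ab1 (808) and H2-Aa (598) passed Lyz2 (508).

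**Figure D2:**
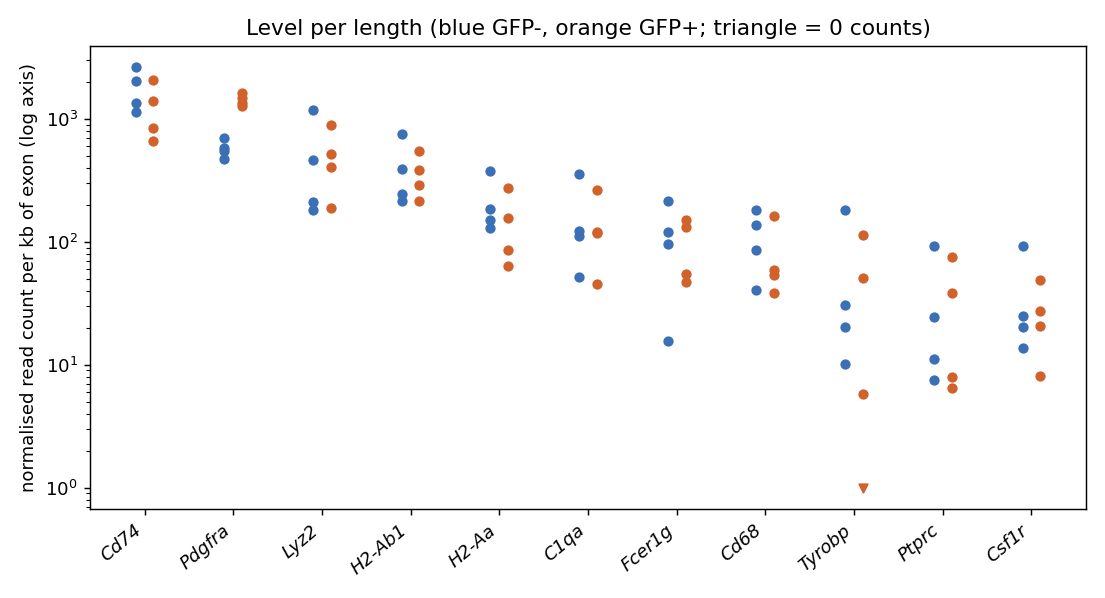
Normalised read count per kb of joined exons (log axis) for the 10 leukocyte genes and for Pdgfra, ordered by mean, with GFP- libraries in blue, GFP+ libraries in orange and a triangle for 0 counts. Cd74 (mean 1527) exceeds Lyz2 (508) in 8 of 8 libraries, and Ptprc (33.1) and Csf1r (32.2) are last.

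The question of whether residual leukocyte RNA differed between GFP+ and GFP- cells was addressed by DESeq2, fitted over all genes. None of the 10 members was called at a DESeq2 adjusted p under 0.05, in a comparison that called 9.42% of all tested genes. None had an unadjusted p under 0.05, which 11.4% of all genes with a p had. The edgeR quasi-likelihood test, which called 5.11% of its genes, and limma voom, which called 1289 of 14323, also called 0 of 10, and 0 of 10 had an unadjusted p under 0.05 in either. No member was called under the other settings, in which the share of genes called was 9.51% with TMM factors, 9.72% with a minimum mean count, 3.98% without independent filtering, 9.39% without the Cook's distance filter, 10.4% with the replicate number as a block, 6.62% after thinning, where 1 of 10 had an unadjusted p under 0.05, and 5.52% at an adjusted p under 0.01. The normalised reads of the 2 groups overlapped for 10 of 10 genes, while 12.3% of tested genes showed no overlap. The estimates were imprecise. The log2 fold change of GFP+ against GFP- ran from -0.53 for Cd74 to -0.01 for Lyz2, and the DESeq2 adjusted p from 0.442 to 0.994. The mean of Ptprc was 624 ± 732 in GFP- and 589 ± 595 in GFP+ libraries (SD, n = 4 each), and the 95% interval of its fold difference reached from 0.232 to 3.90. The narrowest interval, for Cd74, reached from 0.422 to 1.14, around means of 3032 ± 1153 and 2095 ± 1071 (SD, n = 4 each). In bulk RNA, fewer leukocytes and less RNA per leukocyte cannot be told apart.

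The direction was not stable. With all libraries, the DESeq2 log2 fold change was negative in 10 of 10 genes, while it was above 0 in 49.5% of all tested genes. With limma voom on the same 8 libraries it was positive in 7 of 10, with a median of 0.31. Without GFP- replicate 3 the DESeq2 value was positive in 7 of 10, the exceptions being Cd68, Cd74 and H2-Aa, and still 0 of 10 were called while 12.0% of tested genes were. Ptprc then had a log2 fold change of 1.15 ± 0.97 (SE, DESeq2 adjusted p 0.512) and Lyz2 one of 0.81 ± 0.50 (SE, DESeq2 adjusted p 0.332). The groups still overlapped for 10 of 10 genes, while 20.7% of tested genes showed no overlap. Without GFP+ replicate 1 or GFP+ replicate 3, 5 of 10 values were positive. Without GFP+ replicate 2, all 10 values were negative with a median of -0.91, 3 had an unadjusted p under 0.05 and 0 were called, with a lowest DESeq2 adjusted p of 0.0823, that of Cd74. With any single library left out no member tested was called (9 were tested without GFP+ replicate 4, where Tyrobp had no adjusted p, and 10 otherwise), and the share of tested genes called was 8.09%, 7.20%, 12.0% and 6.22% without GFP- replicates 1 to 4, and 9.07%, 8.47%, 6.74% and 8.66% without GFP+ replicates 1 to 4.

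**Figure D3:**
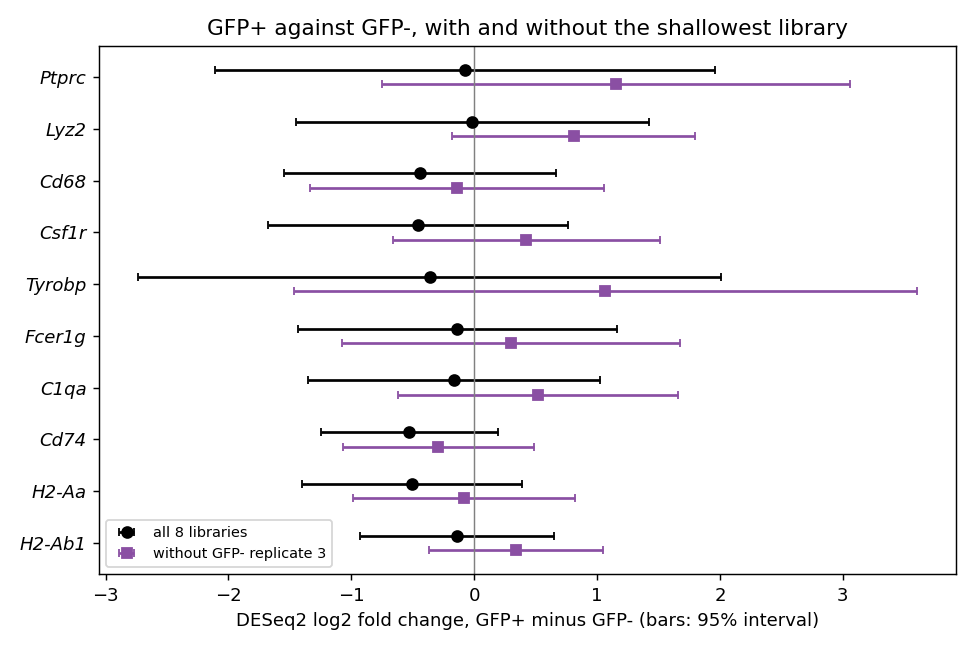
DESeq2 log2 fold change of GFP+ against GFP- (horizontal axis, positive where GFP+ is higher) with 95% intervals for the 10 leukocyte genes, with all 8 libraries (circles) and without GFP- replicate 3 (squares). All 20 intervals include 0, and 7 of 10 estimates change sign.

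Myeloid genes were then set against antigen presentation genes. The median log2 fold change was -0.26 over the 6 myeloid genes and -0.51 over the 3 antigen presentation genes, beside -0.0082 over all 15283 tested genes. Without GFP- replicate 3 these medians were 0.47 and -0.08, beside 0.026 over all tested genes. The summed reads of the 6 myeloid genes were 629, 598, 3022 and 1114 in GFP- replicates 1 to 4, and 742, 2150, 596 and 1184 in GFP+ replicates 1 to 4. Those of the 3 antigen presentation genes were 3328, 3124, 7834 and 5160 in GFP- and 2411, 5956, 2000.5 and 3926 in GFP+ libraries. The myeloid sum was therefore the smaller in 8 of 8 libraries. In every library Lyz2 was the largest part of the myeloid sum and Cd74 of the antigen presentation sum, and the sums were not corrected for length. The ratio of the myeloid to the antigen presentation sum was 0.189, 0.192, 0.386 and 0.216 in GFP- and 0.308, 0.361, 0.298 and 0.302 in GFP+ libraries. The GFP- replicate 3 ratio was the highest of all, and the other 3 GFP- ratios lay below every GFP+ ratio. On the log2 scale the ratio averaged -2.09 ± 0.49 in GFP- and -1.66 ± 0.13 in GFP+ libraries (SD, n = 4 each), a difference of 0.43 that is less than the spread among GFP- libraries. The difference was 0.67 without GFP- replicate 3 and 0.11 with means of log2 values in place of sums. No test was made on this ratio, since the genes were chosen with results of these data known.

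Each set was next compared with Ptprc (the plot of sums against Ptprc). Over the 8 libraries Ptprc varied 14.3-fold, the myeloid sum 5.07-fold and the antigen presentation sum 3.92-fold. In GFP- replicate 3, Ptprc was 6.44 times the mean of the other GFP- libraries, Tyrobp 8.87, Csf1r 4.75, Lyz2 4.18, C1qa 3.75, Fcer1g 2.75 and Cd68 2.09 times, against 1.75 times for Cd74, 2.44 for H2-Aa and 2.67 for H2-Ab1. In GFP+ replicate 2, Ptprc was 4.27 times the mean of the other GFP+ libraries, Tyrobp 6.002, Cd68 3.23, C1qa 2.78, Csf1r 2.61, Lyz2 2.41 and Fcer1g 1.93 times, against 2.15 times for Cd74, 2.696 for H2-Aa and 1.85 for H2-Ab1. The myeloid and antigen presentation genes were thus intermixed in GFP+ replicate 2, and in GFP- replicate 3 Cd68 lay among the antigen presentation genes. There were 11.2, 14.1, 2.62 and 7.62 Cd74 reads for each Ptprc read in GFP- replicates 1 to 4, and 11.9, 2.53, 7.68 and 3.32 in GFP+ replicates 1 to 4. The myeloid sum ran from 6.21 reads for each Ptprc read in GFP+ replicate 1 to 1.55 in GFP+ replicate 2. Both ratios have Ptprc, the most variable of these quantities, as denominator. Gene by gene, the root mean square difference from the library-centred log2 profile of Ptprc did not separate the sets, being 0.72 to 0.75 for Csf1r, Lyz2 and C1qa, 0.83 to 0.95 for the 3 antigen presentation genes, and 0.98 to 1.01 for Cd68, Fcer1g and Tyrobp. Whether class II transcripts in the libraries low in Ptprc came from leukocytes or from stromal or tumour cells was not tested.

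**Figure D4:**
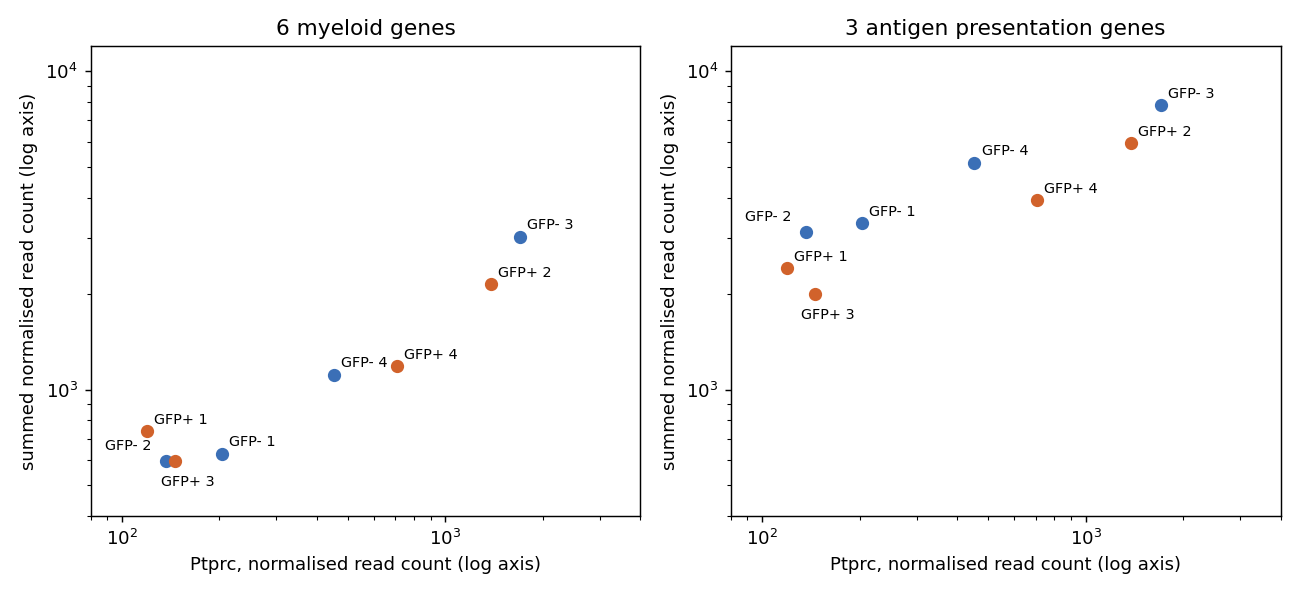
Summed normalised reads of the 6 myeloid genes (left) and the 3 antigen presentation genes (right) against Ptprc, all on log axes, with a labelled point for each library (blue GFP-, orange GFP+). Ptprc spans a 14.3-fold range, while the sums span 5.07-fold and 3.92-fold ranges, and GFP- replicate 3 and GFP+ replicate 2 lie at the upper end of both panels.

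Marker lists of other blood cells were then summed in the 2 leading libraries. In GFP- replicate 3 the sum over 12 T cell genes was 10.3 times the mean of the other GFP- libraries, and in GFP+ replicate 2 it was 6.55 times that of the other GFP+ libraries. For 7 B cell genes these ratios were 8.48 and 5.21. Cd2, an adhesion receptor of T cells, had 0, 5.02, 308 and 52.001 normalised reads in GFP- and 0, 154, 9.22 and 76.8 in GFP+ libraries. Pax5, the transcription factor that maintains B cell identity, had 17.6, 20.8, 418 and 151 in GFP- and 55.5, 328, 53.01 and 122 in GFP+ libraries. Both lymphocyte genes had the same leading libraries as Ptprc. The sum over the 20 genes of the macrophage list was 2.22 and 1.96 times the mean of the other libraries of its group. The same ratios were 3.31 and 3.43 for 12 other genes shared by leukocytes, 3.26 and 3.16 for dendritic cell genes, 1.61 and 2.15 for the class II pathway and 1.62 and 1.49 for NK cell genes. The NK cell sum was highest among GFP- libraries in replicate 4, with 140 normalised reads against 110 in replicate 3. The neutrophil list had ratios of 0.900 and 0.958, but its sum was mostly Il1r2 (ratios 0.804 and 0.948). Of the other 3 neutrophil genes tested, Clec4e had ratios of 5.402 and 1.94 and Csf3r 2.93 and 1.24, while Clec4d had no read in GFP- replicate 3 and a ratio of 0.978 in GFP+ replicate 2. Ly6g, a defining neutrophil marker, had 0 reads in all libraries, S100a8 had reads only in GFP+ replicate 4, and the myeloid integrin Itgam, listed under 2 identifiers of which 1 was at 0 throughout, had 0 to 16 raw reads. Few mast cell reads were present, and their sum exceeded 100 normalised reads only in GFP- replicate 3, with 143, and in GFP+ replicate 2, with 205. The value in GFP- replicate 3 rested on at most 5 raw reads of any gene. In all, 60 of 75 genes of these lists with a mean of at least 10 had their highest GFP- value in replicate 3, against 30.3% of all genes, and 60 of 75 their highest GFP+ value in replicate 2, against 21.8%.

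**Figure D5:**
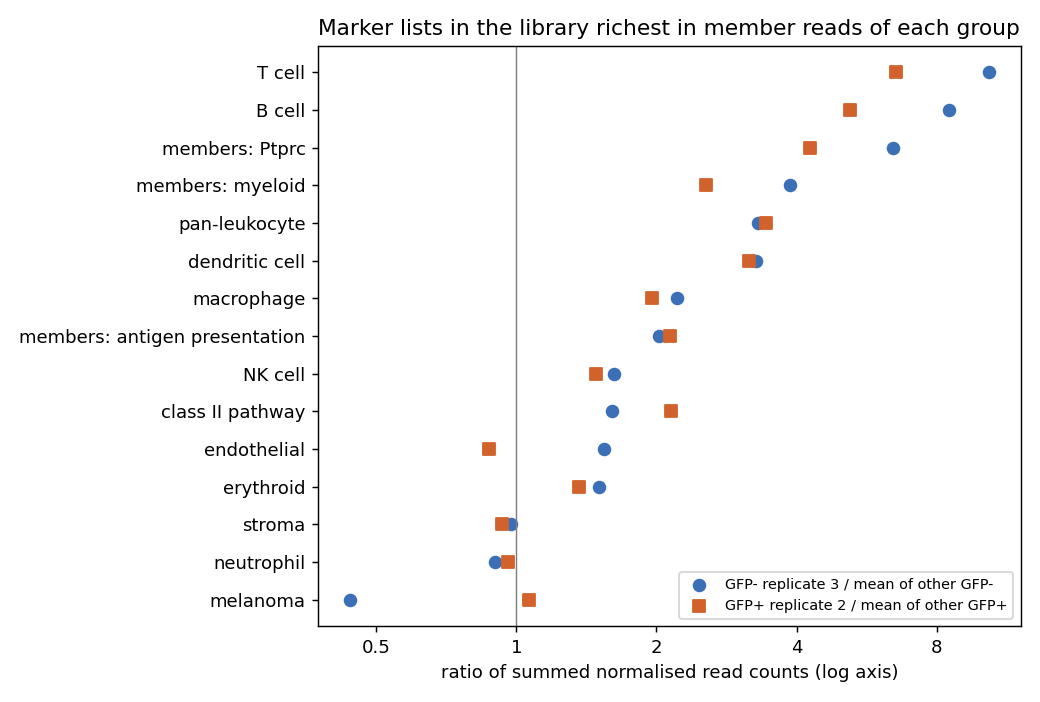
Summed normalised reads of each marker list, the mast cell list excepted, in GFP- replicate 3 divided by the mean of the other 3 GFP- libraries (blue circles) and in GFP+ replicate 2 divided by the mean of the other 3 GFP+ libraries (orange squares), on a log axis with a line at 1. T cell (10.3 and 6.55) and B cell genes (8.48 and 5.21) lie highest, macrophage genes at 2.22 and 1.96, and stromal genes near 1.

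Stromal and tumour lists were summed in the same way. The stromal sum in the 2 leading libraries was 0.972 and 0.933 times that of the other libraries of its group, and was mostly reads of collagen genes. Of the 10 stromal genes, 4 were highest of the GFP- libraries in replicate 3. These were the sort markers Pdpn and Pdgfra, and Pdgfrb and Dcn, at 1.43, 1.32, 1.18 and 1.11 times the mean of the others. The ratios of Lum, Adam12, Thy1 and the collagen genes ran from 0.865 to 0.962. Melanoma genes (Pmel, Mlana, Tyr, Tyrp1, Dct, Mitf, Sox10 and Slc45a2) were 0.439 times the other GFP- libraries in GFP- replicate 3 and 1.07 times the other GFP+ libraries in GFP+ replicate 2. All 8 were called lower in GFP+ cells, where 4.76% of tested genes were. Endothelial genes had ratios of 1.54 and 0.874, and erythroid genes 1.50 and 1.36. The endothelial sum, on average 2210 in GFP- and 2816 in GFP+ libraries, was mostly Tek (1309 and 1379) and Kdr (505 and 1103). Cdh5, Tie1 and Emcn had at most 29.4, 6.30 and 8.93 normalised reads in any library. Of 10 stromal genes 7 were called higher in GFP+ cells by DESeq2, where 4.66% of tested genes were, and 5 by edgeR, where 2.83% were. Of 7 endothelial genes tested Vwf was called, lower in GFP+ cells. Without GFP- replicate 3, Pecam1, which encodes the CD31 of the gate, was also called, higher in GFP+ cells by 1.31 on the log2 scale (DESeq2 adjusted p 0.00439), and Pecam1 in GFP- replicate 3 was 4.94 times the mean of the other GFP- libraries. Of 5 erythroid genes tested, none was called by DESeq2 or edgeR or had an unadjusted p under 0.05. The part of these cells in the values of the leukocyte genes was not tested.

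Of the 9 other leukocyte lists, 3 held 1 called gene each, all lower in GFP+ cells, in a comparison that called 9.42% of all tested genes, 4.76% as lower. The genes were Arhgdib among 12 tested shared leukocyte genes, Mertk among 17 macrophage genes and Ciita among 12 class II pathway genes, and 0 genes were called among 7 dendritic cell, 4 neutrophil, 11 T cell, 7 B cell, 4 NK cell and 2 mast cell genes tested. Ciita, the master regulator of class II transcription, had 461, 413.5, 132 and 584 normalised reads in GFP- and 18.1, 175, 49.9 and 155 in GFP+ libraries, a log2 fold change of -2.01 ± 0.60 (SE, DESeq2 adjusted p 0.0141). Among GFP- libraries Ciita was lowest in replicate 3, where H2-Aa, H2-Ab1 and Cd74 were highest, whereas among GFP+ libraries all 4 genes were highest in replicate 2. Mertk, a receptor for the engulfment of dying cells, had 322, 427, 297 and 564 in GFP- and 56.9, 194, 58.4 and 181 in GFP+ libraries, a log2 fold change of -1.72 ± 0.45 (SE, DESeq2 adjusted p 0.00298). Arhgdib had 737, 618, 407 and 865 in GFP- and 176, 438, 195 and 329 in GFP+ libraries, a log2 fold change of -1.22 ± 0.34 (SE, DESeq2 adjusted p 0.00762). All 3 were below the other GFP- libraries in GFP- replicate 3, at 0.271, 0.678 and 0.549 times their mean, as the melanoma genes were at 0.439 times. The edgeR test called Mertk and Arhgdib and not Ciita. Without GFP- replicate 3, where 12.0% of tested genes were called, DESeq2 called these 3 and also Clec7a, a receptor for β-glucans that was higher in GFP+ cells, by 2.11 on the log2 scale (DESeq2 adjusted p 0.00410), and the mast cell genes Cpa3 and Mcpt4. Most mast cell reads of the GFP+ group came from replicate 2, with 195 raw reads of Cpa3 and 80 of Mcpt4, against at most 10 and 7 in the other GFP+ libraries.

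The most abundant genes of these lists that were not called overlapped between the groups. H2-Eb1, the β chain of the I-E molecule, averaged 640 and 681 normalised reads in GFP- and GFP+ libraries (DESeq2 adjusted p 0.940). The values were 679 and 521 for Mrc1, the mannose receptor CD206 (adjusted p 0.738), 553 and 573 for Ctss, a protease that trims the invariant chain (0.946), and 600 and 567 for Dock2, an activator of Rac in leukocytes (0.983). Il1r2, the decoy receptor for interleukin-1 and the most abundant gene of the neutrophil list, averaged 649.5 and 1028 (DESeq2 adjusted p 0.116).

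The genes whose profile over the 8 libraries was closest to the mean profile of the 10 members were sought among 10576 other genes with a mean of at least 50 normalised reads. Closeness was the root mean square difference of library-centred log2(normalised count + 1), so that 0 is an identical profile. Among the closest were Plek, Lcp1, Vps37b, Gm8995, Bach2, Apobec1 and Gm37899, with differences of 0.22 to 0.35 log2 units over 8 libraries, against a median of 1.05 over all candidates. Plek encodes pleckstrin, a protein kinase C substrate of platelets and leukocytes, Lcp1 the leukocyte actin bundler L-plastin and Bach2 a transcriptional repressor of lymphocytes. Plek and Lcp1 were also the closest 2 when GFP- replicate 3 was left out. Among the members, H2-Aa (0.29) and Csf1r (0.32) lay closest to their own mean profile and Tyrobp farthest (1.26).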

How the data were processed

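Sorted cells were sequenced as stranded total RNA (SMARTer Pico v2, NextSeq). According to the methods and the submitters' processing notes, the authors trimmed adapters with cutadapt 3.4, mapped reads to GRCm38 with STAR 2.7.3a and assigned them to Ensembl genes with featureCounts 2.0.1, using the strand. All values start from the raw counts that the authors deposited. The deposited normalised score, a rounded count after DESeq2 scaling, implied the size factors computed here to within 0.00248%. The authors' mean levels, fold changes, p-values and dispersions in the same table were not used. No molecular identifiers are named in the methods, so counting intervals and the floor of 3 reads per library cover counting error only.

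Genes with a read in any library (29043 of 53801) were fitted with DESeq2 1.42.0 in R 4.3.3, with the group as the only term, default size factors and dispersions, two-sided Wald tests, independent filtering and Benjamini-Hochberg adjustment over 15283 genes, and a gene was called at an adjusted p under 0.05. The other settings were edgeR 4.0.16 (quasi-likelihood test) and limma 3.58.1 (voom), both with TMM, and DESeq2 refitted with TMM factors, on genes averaging at least 10 raw counts, without independent filtering, without the Cook's distance filter, at an adjusted p under 0.01, on libraries thinned to 883144 reads, with the replicate number as a block, and with each library left out in turn. The edgeR counts of called genes in each marker list, and those without GFP- replicate 3, were added after seeing the data. The members and the marker lists were chosen with earlier results of these data known. Genes named were the members, Lyz1, called genes and the most abundant genes of each list, and the 8 genes with the closest profile, of which 1 is not reported here. S100a8, Itgam, C1qb, C1qc, Pdgfrb, Pecam1, Cdh5, Tie1, Emcn, Clec4e, Csf3r and Clec4d were named after their values were seen. Coordinates and lengths came from GENCODE M21 on GRCm38, in which 99.66% of gene identifiers were found. The code was tested on simulated counts.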

Additional observations from a re-analysis of the deposited data

Results flagged for a closer look

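In 3 of the 20 sets of 4 libraries (10 members in 2 groups), 1 library stood so far from the others that its gap to the nearest, divided by the range of the group, exceeded Dixon's 95% critical value for 4 samples. Chance alone marks about 1 in 20 such sets, and the members share their libraries and are not independent of each other. Csf1r had 538.38 normalised reads and Tyrobp 120.86 in GFP- replicate 3, with gaps of 0.859 and 0.880 of the range. Cd68 had 205.84 normalised reads in GFP+ replicate 2, with a gap of 0.832 of the range. GFP- replicate 3 was the shallowest library, and these values rested on 49 reads for Csf1r and 11 for Tyrobp, whereas the Cd68 value rested on 492.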

How the results depend on the processing

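No member was called under any of the 17 alternatives, and the log2 fold changes of Cd74 and H2-Aa stayed negative under all 16 that give one. The direction of the others did not hold. With edgeR, Ptprc had a log2 fold change of 0.0859 and Lyz2 one of 0.0926. With limma voom it was 0.90 for Ptprc, 0.67 for Lyz2, 0.0288 for Cd68, 0.36 for Csf1r, 0.40 for Fcer1g, 0.57 for C1qa and 0.27 for H2-Ab1. Lyz2 was also positive with TMM factors (0.0289), with the replicate number as a block (0.32) and after thinning (0.0074), and Fcer1g with the block (0.13) and after thinning (0.29). With single libraries left out, log2 fold changes ran from -0.94 to 1.15 for Ptprc, -0.44 to 0.81 for Lyz2, -0.94 to 0.42 for Csf1r, -1.51 to 1.07 for Tyrobp, -0.49 to 0.30 for Fcer1g, -0.69 to 0.52 for C1qa and -0.41 to 0.34 for H2-Ab1. In the same fits they ran from -0.89 to -0.29 for Cd74, -1.01 to -0.084 for H2-Aa and -1.07 to -0.14 for Cd68. The cause of these shifts was not tested.

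Over all genes, 1439 were called, against 732 with edgeR, 792 after thinning, 844 at an adjusted p under 0.01, 1492 with the replicate number as a block and 969 to 1837 with single libraries left out. The block changed no call of a member. Deviations from group means of same-numbered libraries correlated at 0.084, -0.17, -0.13 and 0.25 across genes. Only replicate 4 correlated best with its own number. The labels do not say whether same-numbered libraries shared a tumour. With 4 libraries per group of unequal depth, these correlations cannot decide it. The difference between groups in the log2 ratio of myeloid to antigen presentation reads, 0.43, does not depend on scaling. It was 0.11 with means of log2 values in place of sums, and 0.33 to 0.67 with single libraries left out. Tyrobp had the fewest raw reads of the members, 0 to 182 per library, and the 0 was in GFP+ replicate 1, which was not the shallowest library.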
